A study of Homo sapiens with 6 samples.

Results

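The mitochondrial ribosomal proteins are encoded in the nucleus, and their genes were taken here as the protein-coding genes whose symbols begin with MRPL (large subunit) or MRPS (small subunit) followed by a number. The rule found 78 of the 62696 genes listed, 49 MRPL and 29 MRPS. RNA came from 12Z, an established epithelial line from human endometriosis (endometrium-like tissue outside the uterus). Cells received a control siRNA (libraries A, B, C) or a single siRNA directed at the long non-coding RNA LINC01638 (libraries A, B, C, called knockdown below) and were harvested 72 h later. Effects of that siRNA and of its target are joined in each value. Total RNA was depleted of ribosomal RNA and sequenced with strand information. The labels do not say that replicates were separate cultures, so each p-value measures only how far these libraries spread, and that spread may be technical.

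Mitochondrial ribosomes translate the few messenger RNAs that the mitochondrial genome encodes, all for subunits of the respiratory chain and ATP synthase. Their ribosomal RNAs are transcribed in the organelle, whereas their proteins are made in the cytosol, imported, and assembled onto those RNAs. The small subunit reads the messenger RNA, and the large subunit forms peptide bonds and passes the chain through an exit tunnel to the inner membrane. Part of the proteins descend from bacterial ribosomal proteins, and the others were added in mitochondria. Endometrial epithelium, like other growing epithelium, needs this system to supply respiratory complexes.

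Libraries held 45617234 to 58148664 counts assigned to genes. LINC01638 itself had 7.64, 7.65 and 7.81 CPM in control libraries A, B, C and 2.29, 1.98 and 2.05 CPM in knockdown libraries A, B, C (log2 fold change −1.87, adjusted p = 3.73e-11 by edgeR's quasi-likelihood test), with no overlap between the groups. CPM are counts scaled to a common library size after TMM normalization. Reads outside exons were 9.18% ± 0.864 of mapped reads in control and 13.2% ± 1.67 in knockdown libraries (mean ± SD, n = 3 each), and their part in the results below was not tested. Of 7 epithelial markers all were detected, but their mean levels in control ran from 0.377 to 2604 CPM, so the lowest was barely present. Of these markers 6 fell and 1 rose, with a summed level of 5347 to 5764 CPM in control and 3246 to 3772 CPM in knockdown libraries. The 5 endometrial stromal markers, collagen gene COL1A1 among them, were detected as well and 4 fell (4283 to 5156 against 3262 to 3526 CPM summed). Most of that sum came from a single gene, at 4490 CPM in control against a median of 98.3 CPM over the list. That gene lay above every epithelial marker. Immune markers summed to 46.5 to 53.6 against 34.5 to 35.8 CPM, nearly all from CD14, with CD3E at 0 in every library and PTPRC at 0.319 ± 0.131 CPM in control, and endothelial markers to 1.89 to 2.29 against 3.16 to 3.79 CPM. The part of any change in cell makeup was not tested. In bulk RNA, fewer cells of a type and less RNA per cell cannot be told apart.

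More mitochondrial ribosomal protein genes were lower than higher with LINC01638 siRNA, and most changes were small. Of the 77 genes with enough counts to test, 39 fell, 14 rose and 24 did not pass an edgeR adjusted p of 0.05 (Benjamini-Hochberg over all 18569 genes tested). Of all genes tested, 56.0% passed, 26.3% higher and 29.6% lower, and of protein-coding genes 64.9%, 28.6% higher and 36.3% lower. Among the mitochondrial ribosomal protein genes 68.8% passed, 18.2% higher and 50.6% lower, so the share that passed was near that of protein-coding genes while more of them lay on the lower side. The median log2 fold change (LINC01638 siRNA minus control siRNA) was −0.15 over the 77 genes, against −0.04 over protein-coding genes and −0.00 over all genes tested. The 3 libraries of each group did not overlap for 57 of the 77 genes, 42 of them lower, which is 74.03% with groups apart and 54.5% lower with groups apart. Of all genes tested 61.5% had groups apart and 32.1% were lower and apart, and of protein-coding genes 69.7% and 38.5%, so the share apart was near that of protein-coding genes. Only 7 of the 77 had a fold change past 1.5, MRPS5 upward and MRPL24, MRPL58, MRPL2, MRPL12, MRPL33 and MRPS16 downward. Scaling by library totals alone moved the median of all genes by 0.102 on the log2 scale and gave 20 higher and 28 lower genes of the family. The gene not tested, MRPL53, had 1, 3 and 8 counts in control and 0, 6 and 5 in knockdown libraries.

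**Figure D1:**
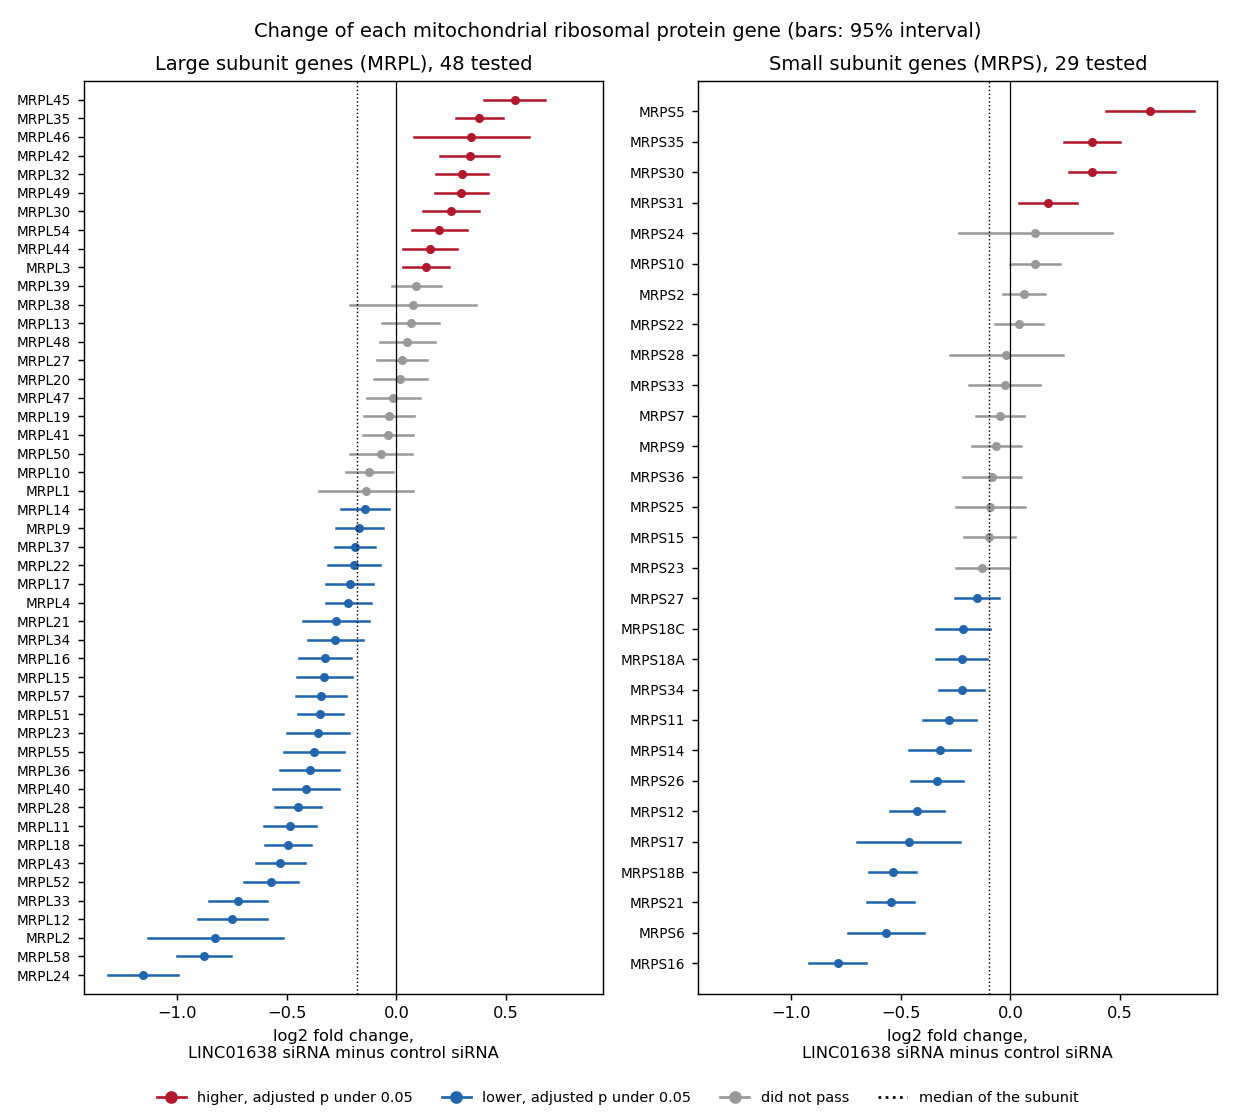
Log2 fold change (horizontal axis, LINC01638 siRNA minus control siRNA) of each of the 48 MRPL and 29 MRPS genes tested, with bars for 95% intervals and a dotted line at the subunit's median. The 26 lower MRPL and 13 lower MRPS genes in blue extend further from 0 than the 10 and 4 higher ones in red: they reach −1.16 and −0.79, against 0.54 and 0.64. The medians are −0.18 and −0.10, and with library totals alone they are −0.0772 and 0.00553.

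Both subunits held more lower than higher genes, as did protein-coding genes (36.3% lower and 28.6% higher, 64.9% past the threshold). Among 48 MRPL genes 26 fell (54.2%), 10 rose (20.8%) and 12 missed the threshold, so 75% passed. Their median log2 fold change was −0.18 and their range −1.16 to 0.54. Among 29 MRPS genes 13 fell (44.8%), 4 rose (13.8%) and 12 missed it, so 58.6% passed. Their median was −0.10 and their range −0.79 to 0.64. With library totals alone the MRPS median was 0.00553 and the MRPL median −0.0772 (all alternatives are given at the end). That scaling moves all genes about alike, so the distances to the median of all genes, −0.18 (MRPL) and −0.10 (MRPS), could hardly change. In fits where they could, they were −0.138 and −0.055 with protein-coding genes only, and −0.265 and −0.171 without a filter. Summed over its genes, the large subunit had 2204, 2035 and 2019 CPM in control libraries A, B, C and 1820.2, 1955 and 1846 CPM in knockdown libraries A, B, C. The small subunit had 1244, 1147 and 1147 CPM in control and 1022, 1091 and 1047 CPM in knockdown libraries. For both sums every knockdown library lay below every control library, control library A was the highest and knockdown library B the nearest to the controls. The ratio of the summed MRPS to the summed MRPL level was 0.566 ± 0.00228 in control and 0.562 ± 0.00457 in knockdown libraries (SD, n = 3 each), and these ranges overlapped. With each level divided by exonic length the ratio was 0.508 ± 0.00298 in control and 0.507 ± 0.00587 in knockdown libraries, and the ranges overlapped too. For summed CPM, whether the ranges overlapped turned on which genes were placed in which subunit, as given next. No test was made of these sums, since they are scores over chosen genes.

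Some MRPS symbols do not name small subunit proteins of the assembled ribosome: MRPS18A and MRPS30 sit in the large subunit, and MRPS36 is now known as a component of the 2-oxoglutarate dehydrogenase complex. MRPS30 had 46.4, 42.7 and 46.9 CPM in control libraries A, B, C and 57.95, 60.4 and 57.6 CPM in knockdown libraries A, B, C, and all knockdown libraries lay above all controls (log2 fold change 0.37, SE 0.0536, adjusted p = 6.77e-06). MRPS18A had 39.5, 36.5 and 36.5 CPM against 30.2, 33.01 and 33.2 CPM in the same order and fell (log2 fold change −0.22, SE 0.0599, adjusted p = 0.00366), with groups apart. That call was lost with library totals alone (adjusted p = 0.092). MRPS36 had 20.4, 18.8 and 18.6 CPM against 17.7, 18.5 and 18.4 CPM and did not pass (log2 fold change −0.08, adjusted p = 0.307), although its groups did not overlap. With these genes placed by structure, 27 of 50 large subunit genes fell (54%) and 11 rose (22%), with a median of −0.18. Of 26 small subunit genes 12 fell (46.2%) and 3 rose (11.5%), with a median of −0.11. Of protein-coding genes 36.3% fell and 28.6% rose. The ratio of the summed small to the summed large subunit level was then 0.497, 0.496 and 0.497 in control libraries A, B, C and 0.480, 0.478 and 0.484 in knockdown libraries A, B, C. So with this placement every knockdown library lay below every control library (0.497 ± 0.000422 against 0.481 ± 0.00312, SD, n = 3 each), which was not tested. This placement left out the 5 ribosomal proteins under other symbols given below, and its ratio was not computed per exonic length.

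Promoter windows were compared because genes of the family moved both ways, and their starts could be searched for words that factors of mitochondrial biogenesis recognise. RefSeq windows from 250 bases before to 50 after the gene start (GRCh38.p14) were held for 70 of the 78 genes. The ETS word CCGGAAG, bound by GABPA and related factors, stood on either strand in 41.4% of them against 14.2% of 15843 protein-coding promoters of the same length. The YY1 word AANATGGCG stood in 25.7% against 4.81%, the NRF1 word in 11.4% against 8.58%, and the E-box CACGTG, bound by MYC and other factors, in 10.0% against 8.88%. Both strands were searched (the E-box reads alike on both), and a base could count for more than 1 word. The ETS and YY1 words were about as frequent in MRPL (40.5% and 26.2%) as in MRPS promoters (42.9% and 25%). By direction of change, ETS stood in 4 of 13 promoters of higher, 15 of 35 of lower and 9 of 21 of uncalled genes, and YY1 in 4 of 13, 8 of 35 and 6 of 21. A match describes letters and not a bound site.

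The windows below show where these words stood before some of the genes called in each direction, 5′ to 3′ on the gene's strand, with the matched word in capitals. MRPL58 (chr17:75012570-75012669, plus), MRPL43 (chr10:100987498-100987597, minus) and MRPS34 (chr16:1773135-1773234, minus, the word on the opposite strand at 3 places) fell and hold the ETS word, and so does MRPL3 (chr3:131502972-131503071, minus). MRPL3 rose little (log2 fold change 0.13, adjusted p = 0.0379), its groups overlapped, and its call was lost in 4 of 6 omissions of a library (adjusted p up to 0.213). The ETS word also stands in the promoters of MRPL30, MRPL54 and MRPS31, which rose and are not shown. MRPL30 rose with groups apart (log2 fold change 0.25, adjusted p = 0.00261) and kept its call in each omission.
MRPL58: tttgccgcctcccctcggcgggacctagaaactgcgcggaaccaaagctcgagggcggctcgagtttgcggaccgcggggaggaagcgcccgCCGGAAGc
MRPL43: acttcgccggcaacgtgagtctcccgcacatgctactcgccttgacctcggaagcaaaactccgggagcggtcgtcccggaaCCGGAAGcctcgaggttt
MRPS34: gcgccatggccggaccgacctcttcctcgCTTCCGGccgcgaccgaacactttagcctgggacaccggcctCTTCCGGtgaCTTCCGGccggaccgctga
MRPL3: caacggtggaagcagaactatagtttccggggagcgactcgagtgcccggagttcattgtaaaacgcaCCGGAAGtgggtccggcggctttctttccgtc
The YY1 word stands at 2 places before MRPL52 (chr14:22829767-22829886, plus), which fell. Only MRPL52 and MRPL36 hold this word before the start alone. All other genes of the family with the word hold it after the start, from position 7 (MRPL38) to 36 (MRPL22). MRPL52 also holds an ETS word on the opposite strand, from position −5 across the gene start. It runs past the end of this window and is not marked.
MRPL52: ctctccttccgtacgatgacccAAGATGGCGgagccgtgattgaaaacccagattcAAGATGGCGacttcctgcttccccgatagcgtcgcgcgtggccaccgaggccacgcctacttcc
The YY1 word also lies just after the start of MRPS18B (chr6:30617853-30617877, plus), which fell, and of MRPS30 (chr5:44808950-44808974, plus) and MRPL42 (chr12:93467514-93467537, plus), which rose.
MRPS18B: ggcgtacgtcAAGATGGCGgcgtct
MRPS30: atcgcgggcaAAGATGGCGgcggcc
MRPL42: attgaaacAAGATGGCGggttcgt
MRPL45 (chr17:38296968-38297167, plus), which rose most among MRPL genes, holds an NRF1 word and an E-box and neither of the others.
MRPL45: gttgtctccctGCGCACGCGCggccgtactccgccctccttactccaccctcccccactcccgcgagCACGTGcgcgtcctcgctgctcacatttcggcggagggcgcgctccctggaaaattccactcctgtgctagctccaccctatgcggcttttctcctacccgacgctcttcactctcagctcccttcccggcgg

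The MRPL genes with the largest falls were MRPL24, MRPL58, MRPL2, MRPL12 and MRPL33. MRPL24 (ENSG00000143314.12, GRCh38 chromosome 1, 156737303 to 156741590, minus strand), whose product lies at the polypeptide exit tunnel, had 32.3, 26.2 and 27.4 CPM in control libraries A, B, C and 12.8, 13.7 and 12.03 CPM in knockdown libraries A, B, C. It fell 2.23-fold (28.6 ± 3.25 in control against 12.9 ± 0.858 CPM with knockdown, SD, n = 3; log2 fold change −1.16, SE 0.0814, adjusted p = 5.06e-10), and its highest knockdown library lay far below its lowest control. MRPL58 (ENSG00000167862.10, GRCh38 chromosome 17, 75012670 to 75021261, plus strand) is a peptidyl-tRNA hydrolase built into the central protuberance, the crest that faces the small subunit, and had 36.7, 34.9 and 34.1 CPM against 19.3, 20 and 18.3 CPM in the same order. It fell 1.84-fold (log2 fold change −0.88, SE 0.0624, adjusted p = 4.79e-10), with replicates of each group close together and the groups far apart. MRPL2 (ENSG00000112651.12, GRCh38 chromosome 6, 43054029 to 43059806, minus strand), next to the peptidyl transferase centre, had 3.98, 4.01 and 4.56 CPM against 1.74, 2.94 and 2.41 CPM, a fall of 1.77-fold (log2 fold change −0.83, SE 0.157, adjusted p = 0.000161). Its levels were low and knockdown library A was the lowest, but no library crossed into the other group. MRPL12 (ENSG00000262814.8, GRCh38 chromosome 17, 81703357 to 81707526, plus strand) forms the stalk that recruits translation factors and had 16.8, 16.4 and 14.6 CPM against 9.36, 9.82 and 9.28 CPM (log2 fold change −0.75, SE 0.0797, adjusted p = 1.25e-07). Of its exonic length 68.2% is shared with another annotated gene on the same strand, so its counts come from the remainder and are uncertain. MRPL33, a small homologue of a bacterial protein, had 32.8, 29.9 and 30.2 CPM against 19.7, 19.2 and 17.4 CPM (log2 fold change −0.72, SE 0.0671, adjusted p = 1.89e-08), with 21.1% of its exonic length shared. All 5 genes had groups apart and kept their call in each of 15 alternative fits.

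The MRPL genes with the largest rises were MRPL45, MRPL35, MRPL42, MRPL32 and MRPL46. MRPL45 (ENSG00000278845.5, GRCh38 chromosome 17, 38297023 to 38323218, plus strand), which tethers the ribosome to the inner membrane beside the tunnel exit, had 25.1, 21.7 and 20.3 CPM in control libraries A, B, C and 32.9, 32.9 and 31.6 CPM in knockdown libraries A, B, C. It rose 1.45-fold (log2 fold change 0.54, SE 0.0711, adjusted p = 2.07e-06), every knockdown library being above every control, although only 83.1% of its 50-base stretches are unique in annotated transcripts, since pseudogene copies exist. MRPL35, a homologue of a bacterial protein, had 39.03, 38.6 and 38.8 CPM against 48.04, 52.8 and 50.7 CPM in the same order (log2 fold change 0.38, SE 0.0539, adjusted p = 5.43e-06), with very close controls. MRPL42 had 53.3, 46.6 and 49.3 CPM against 57.6, 69.9 and 60.7 CPM (log2 fold change 0.33, SE 0.0684, adjusted p = 0.000444), and knockdown library B was the highest. MRPL32, whose precursor is processed by a protease of the inner membrane, had 30.9, 28.9 and 29.96 CPM against 34.3, 38.7 and 37.5 CPM (log2 fold change 0.30, SE 0.0606, adjusted p = 0.000307). For these genes too the groups did not overlap. MRPL46 of the central protuberance, the lowest large subunit gene tested at 0.372 ± 0.0236 RPKM (reads per kilobase of exons, scaled to library size; control), had 2.33, 2.56 and 2.28 CPM against 3.22, 2.96 and 2.88 CPM (log2 fold change 0.34, SE 0.134, adjusted p = 0.0365). Its call was lost in 5 of 6 omissions of a library (adjusted p up to 0.124), and 11.3% of its exonic length is shared.

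**Figure D2:**
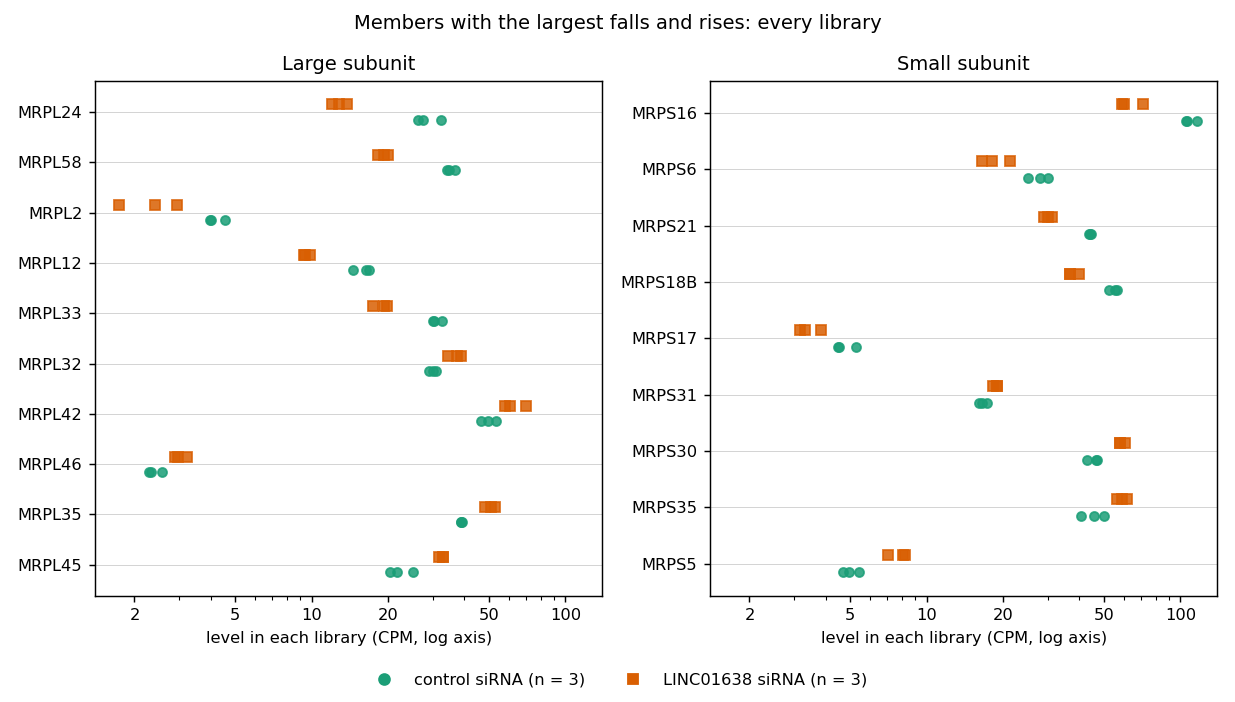
Level in each library (CPM, log axis) of the MRPL (left) and MRPS genes (right) with the largest falls and rises, control libraries as green circles and knockdown libraries as orange squares. The groups stay apart in every gene shown, from MRPL24 (26.2 to 32.3 against 12.0 to 13.7 CPM) to MRPS5 (4.66 to 5.42 against 7.06 to 8.21 CPM).

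The other lower MRPL genes ranged from −0.57 (MRPL52) to −0.15 (MRPL14) on the log2 scale, and the other higher ones from 0.13 (MRPL3) to 0.30 (MRPL49). No named part of the large subunit held genes that all fell or all rose. Of protein-coding genes 36.3% fell and 28.6% rose. Among 6 exit tunnel genes 4 fell, MRPL45 rose and MRPL47 did not pass. Of 8 central protuberance genes MRPL58, MRPL18 (log2 fold change −0.49), MRPL40 (−0.41) and MRPL55 (−0.38) fell, MRPL46 rose and 3 did not pass. In the stalk MRPL12 fell, whereas MRPL10, the base to which it binds, had 44.8, 44.7 and 43.3 CPM in control libraries A, B, C and 38.5, 42.2 and 41.2 CPM in knockdown libraries A, B, C and did not pass (log2 fold change −0.12, SE 0.0547, adjusted p = 0.0608). Its groups did not overlap, and it passed in the column counted without strand and without knockdown library B (adjusted p = 0.0176 and 0.0324). The highest levels per length in control were those of MRPL51 (68.5 ± 3.75 RPKM), MRPL14 (61.2 ± 4.46 RPKM) and MRPL41 (55.7 ± 4.89 RPKM). MRPL51 had 112, 101 and 106 CPM against 81.5, 87.96 and 81.2 CPM in the same order and fell (log2 fold change −0.35, SE 0.0525, adjusted p = 1.18e-05). MRPL14, where the assembly factor MALSU1 docks, had 63.6, 56.1 and 56.3 CPM against 52.7, 53.8 and 52.7 CPM (log2 fold change −0.15, SE 0.0558, adjusted p = 0.0328), a call lost in 9 of 15 alternatives (adjusted p up to 0.531). MRPL41 had 76.6, 70.1 and 64.3 CPM against 68.3, 70.9 and 66.2 CPM and did not pass (log2 fold change −0.04, adjusted p = 0.61), with overlapping groups.

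In the small subunit the largest fall was that of MRPS16, one of its most abundant messenger RNAs. MRPS16 (ENSG00000182180.14, GRCh38 chromosome 10, 73248843 to 73252693, minus strand), a homologue of a bacterial protein that small subunit assembly needs, had 116, 106 and 107 CPM in control libraries A, B, C and 58.9, 71.2 and 59.9 CPM in knockdown libraries A, B, C. It fell 1.73-fold (109 ± 5.68 in control against 63.4 ± 6.81 CPM with knockdown, SD, n = 3; log2 fold change −0.79, SE 0.0654, adjusted p = 1.57e-08), and knockdown library B was the nearest to the controls. MRPS6 had 29.99, 25 and 27.9 CPM against 16.5, 21.3 and 18.1 CPM in the same order (log2 fold change −0.57, SE 0.0882, adjusted p = 3.31e-05). MRPS21 had 44.4, 43.9 and 43.5 CPM against 30.1, 31.2 and 29.1 CPM (log2 fold change −0.55, SE 0.0549, adjusted p = 5.51e-08), and the replicates of each group lay within a narrow range. Both genes belong to the platform, the side where messenger RNA leaves, and in both the groups were apart. MRPS18B, related in sequence to MRPS18A and MRPS18C, had 56.4, 55.4 and 52.5 CPM against 36.8, 39.9 and 36.5 CPM (log2 fold change −0.54, SE 0.0554, adjusted p = 7.96e-08). MRPS18C, the one taken here as the homologue of the bacterial protein, had 26.2, 24.7 and 24.5 CPM against 21.6, 21.96 and 21.4 CPM (log2 fold change −0.22, SE 0.0621, adjusted p = 0.00593), a call lost with library totals alone (adjusted p = 0.126). So all 3 genes fell, MRPS18B by more than MRPS18A and MRPS18C, a difference that was not tested. Of 6 platform genes 5 fell, MRPS11 (log2 fold change −0.28) being the fifth, and MRPS15 did not pass (−0.10). Of protein-coding genes 36.3% fell.

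Of the 7 genes of the small subunit head, which carries the tRNA sites, 2 rose, MRPS14 fell (−0.32 on the log2 scale) and 4 did not pass. MRPS35, added in mitochondria, had 49.97, 40.7 and 45.7 CPM in control libraries A, B, C and 56.1, 61.6 and 59.04 CPM in knockdown libraries A, B, C (log2 fold change 0.37, SE 0.0651, adjusted p = 7.05e-05), with groups apart. MRPS31 had 17.3, 16.6 and 16.01 CPM against 18.3, 18.9 and 18.9 CPM in the same order and rose little (log2 fold change 0.17, SE 0.0674, adjusted p = 0.0389), and the call was lost in 5 of 6 omissions of a library (adjusted p up to 0.142). Around the messenger RNA entry and decoding site the genes moved both ways. MRPS5 (ENSG00000144029.14, GRCh38 chromosome 2, 95087207 to 95149434, minus strand), at the entry, had 5.42, 4.92 and 4.66 CPM against 8.21, 7.06 and 8.05 CPM and rose 1.55-fold (log2 fold change 0.64, SE 0.102, adjusted p = 2.23e-05), the largest rise of the family, from a low level. MRPS12, whose bacterial counterpart takes part in decoding accuracy, had 52.8, 45.1 and 46.6 CPM against 34.5, 37.1 and 35.96 CPM and fell (log2 fold change −0.43, SE 0.0622, adjusted p = 7.42e-06). MRPS24, also at the entry and the lowest small subunit gene tested (0.717 ± 0.169 RPKM in control), had 2.33, 1.44 and 1.85 CPM against 2.18, 1.75 and 2.18 CPM, overlapping groups and no call (log2 fold change 0.11, adjusted p = 0.613). Of its exonic length 23.2% is shared with a readthrough gene.

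The levels per length in control were highest for MRPS34 (84.5 ± 5.96 RPKM), MRPS26 (41.8 ± 2.11 RPKM) and MRPS16 (39.1 ± 2.03 RPKM) among small subunit genes. MRPS34, which stabilises the small ribosomal RNA, had 98.3, 94.2 and 85.5 CPM in control libraries A, B, C and 79.8, 78.2 and 80.2 CPM in knockdown libraries A, B, C and fell (log2 fold change −0.22, SE 0.0531, adjusted p = 0.00137). MRPS26 had 49.2, 47.6 and 44.6 CPM against 35.3, 40.5 and 36.4 CPM in the same order and fell (log2 fold change −0.33, SE 0.0613, adjusted p = 0.000104). MRPS17, a homologue of a bacterial protein of the body, had 4.49, 5.24 and 4.52 CPM against 3.32, 3.83 and 3.18 CPM (log2 fold change −0.46, SE 0.12, adjusted p = 0.00262), with 27.0% of its exonic length shared with another gene. The groups were apart in all 3, and with library totals alone MRPS34 no longer passed (adjusted p = 0.0596). The lower MRPS genes not given by library, MRPS14, MRPS11 and MRPS27, lay between −0.32 (MRPS14) and −0.15 (MRPS27), and over both subunits the genes that did not pass lay between −0.14 (MRPL1) and 0.11 (MRPS24). The median level over the family in control was 15.6 RPKM, 16.5 for MRPL and 12.6 for MRPS genes.

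By origin, 27 of 46 genes that descend from bacterial ribosomal proteins fell and 5 rose (median log2 fold change −0.21), and of 28 genes added in mitochondria 11 fell and 8 rose (median −0.05). The homologues were thus 58.7% lower and 10.9% higher, and the genes added in mitochondria 39.3% lower and 28.6% higher, the latter near the 36.3% and 28.6% of protein-coding genes. MRPS18B, a diverged relative of MRPS18C, was counted with the genes added in mitochondria. No test of the difference was made, because the classes were drawn up with results known. In the large subunit 19 of 30 homologues fell and 4 rose (median −0.22), and 7 of 18 mitochondria-specific genes fell and 6 rose (median 0.01). In the small subunit 8 of 16 homologues fell and 1, MRPS5, rose (median −0.16), and 4 of 10 specific genes fell and 2 rose (median −0.11). The 67 genes that share under 10% of their exons and have at least 90% unique 50-base stretches gave 36 lower and 11 higher (median −0.17).

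Among the shortest transcripts most genes fell. Of 13 genes whose longest annotated coding transcript is under 1000 bases, 10 fell and 1 rose (median log2 fold change −0.36), and of 9 with 3000 bases or more, 2 fell and 2 rose (median −0.07). Protein-coding genes showed a lean of the same sign: under 1000 bases 46.1% of 488 were lower and 16.0% higher (median −0.18), and from 3000 bases on 34.04% of 7800 were lower and 32.4% higher (median −0.01). Across the 77 genes the log2 fold change went with transcript length (Spearman's rho 0.27) and against GC content (rho −0.35), compared with 0.10 and −0.17 over 13558 protein-coding genes. These are correlations across genes that share the same 6 libraries, given without a test. Within the family the relation with length lay in MRPL (rho 0.37, n = 48) more than in MRPS genes (0.05, n = 29). The lower genes had a median transcript of 1296 bases and 52.7% GC, and the higher genes 1706 bases and 45.2% GC. The part of length, GC content and the share of reads outside exons in these changes was not tested.

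**Figure D3:**
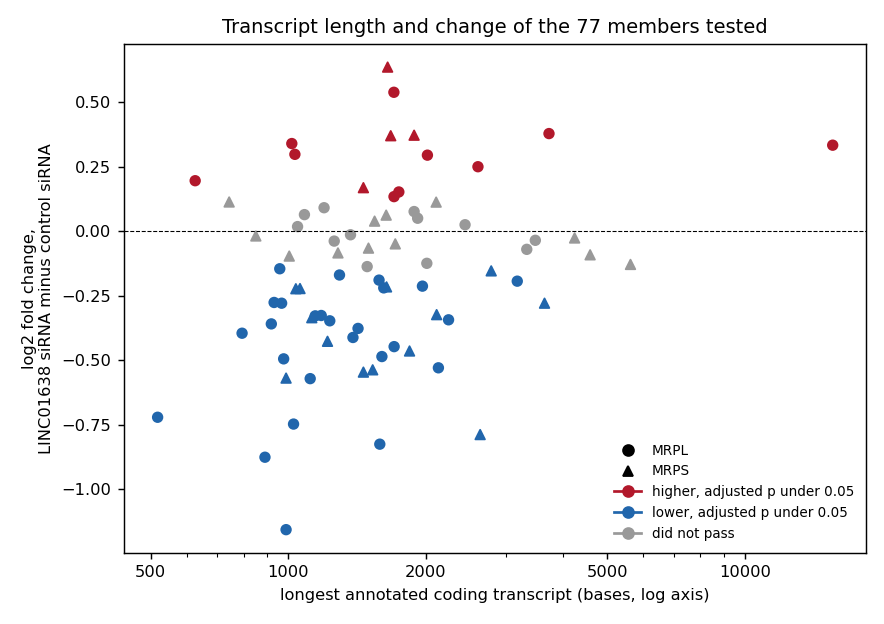
Log2 fold change against the length of the longest annotated coding transcript (bases, log axis) for the 77 genes tested, MRPL as circles and MRPS as triangles. Points under 1000 bases lie mostly below 0 (10 of 13 lower), and those of 3000 bases and more lie on both sides.

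Many genes of the family start back to back with a neighbour on the other strand. Of the 78 genes 17 had such a partner within 1000 bases, forming 16 pairs, 1 of which joins family members from both subunits. Only pairs whose annotated starts do not overlap were counted, so the values below leave out neighbours with overlapping starts. In 15 pairs both genes were tested, and in 6 both passed: 2 moved in the same direction and 4 in opposite directions. MRPL52 and its neighbour SLC7A7, an amino acid transporter 59 bases away, both fell (log2 fold change −0.57 and −1.21), as did MRPL36 and NDUFS6, a complex I subunit (−0.40 and −0.21). MRPL46 rose while MRPS11, 34 bases away, fell (0.34 and −0.28). MRPL30 rose and MITD1 fell (0.25 and −0.48), MRPS34 fell and EME2 rose (−0.22 and 0.22), and MRPS18C fell and HELQ, a DNA helicase, rose (−0.22 and 0.58). Over the 15 pairs Spearman's rho was −0.13, a description over genes of the same libraries. MRPL27 stood at 0.03 and did not pass, beside EME1, a subunit of a DNA endonuclease 6 bases away, which fell (−1.06). The pairs were counted by strand, so reads of one gene were not counted for the other.

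**Figure D4:**
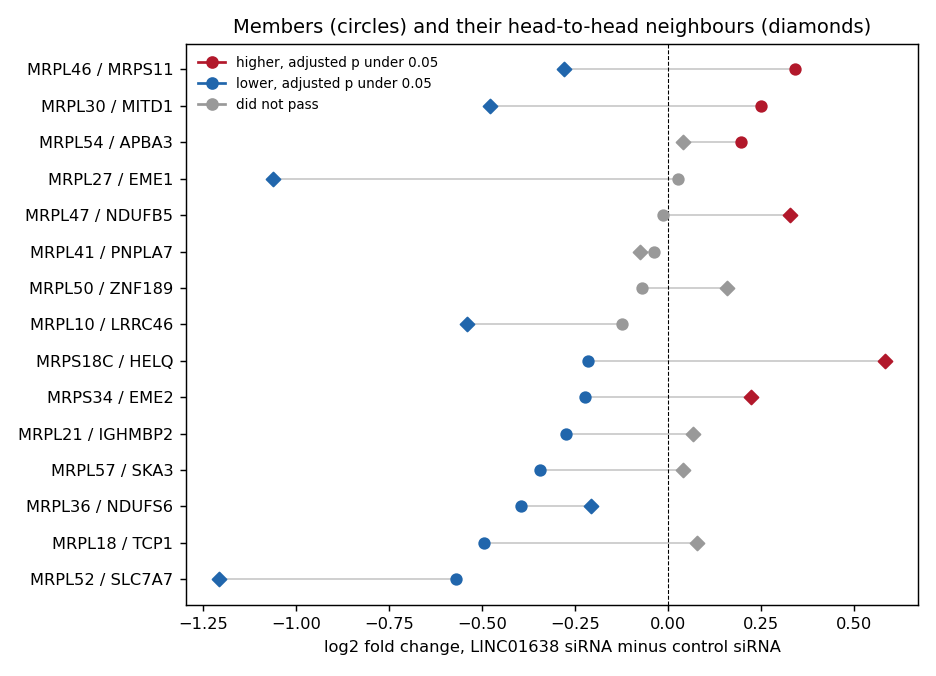
Log2 fold change of each family member (circle) and its back-to-back neighbour (diamond) for the 15 pairs in which both were tested, joined by a line. In 4 of the 6 pairs with 2 called genes the line runs across 0, from MRPL46 with MRPS11 to MRPS18C with HELQ.

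Genes that work with the mitochondrial ribosome moved both ways. Of 5 ribosomal proteins under other symbols, GADD45GIP1 (log2 fold change −0.32) in the large subunit and CHCHD1 (−0.47), AURKAIP1 (−0.37) and PTCD3 (−0.23) in the small subunit fell, and DAP3 (0.16), a GTP-binding small subunit protein, rose. The DAP3 call was lost without control library C and in the column without strand. Among 26 assembly and ribosomal RNA modification genes 9 fell and 6 rose: TFB1M, the methyltransferase of the small ribosomal RNA, fell 2.16-fold (16.1 ± 0.8 in control against 7.47 ± 1.27 CPM with knockdown, log2 fold change −1.11, adjusted p = 1.97e-08), RPUSD3 (−0.65) and NSUN4 (−0.48) fell, and DHX30, the most abundant of the list, rose (0.25). Of 18 translation factors 6 fell and 5 rose, the fallers down to −0.41 (PDF). The 4 with the lowest p all rose: the release factor MTRF1L (0.67), the elongation factor GFM1 (0.58), GUF1 (0.37) and the recycling factor MRRF (0.35). LRPPRC, the RNA-binding protein most abundant in this list, rose as well (0.27). The shares of the assembly and translation factor lists lie close to those of all genes tested.

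In mitochondrial transcription TFAM, the DNA-packaging factor that opens promoters, rose (74.2 ± 5.92 in control against 115 ± 3.05 CPM with knockdown, log2 fold change 0.63, SE 0.0554, adjusted p = 8.13e-09), as did TFB2M (0.65 on the log2 scale). POLRMT, the mitochondrial RNA polymerase, fell (−0.48), as did TEFM (−0.26). The ribosomal RNAs MT-RNR1 and MT-RNR2 had 9.03, 9.64 and 10.99 CPM against 19.7, 18.4 and 17.1 CPM and 12.4, 15.3 and 14.1 CPM against 27.3, 29.6 and 30.03 CPM in the order above. Both rose (log2 fold change 0.89 and 1.06, adjusted p = 2.56e-08 and 5.73e-10) with groups apart, but these are the molecules left after depletion, whose efficiency in each library was not tested. Of the 13 mitochondrial messenger RNAs 1, MT-ND4, passed and fell (−0.41), and the median was −0.14. MT-CO1, the most abundant of them, had 3271, 2753 and 3105 CPM against 2212, 2869.8 and 3237 CPM and did not pass (log2 fold change −0.13, adjusted p = 0.43), with overlapping groups. Among 10 nuclear regulators of mitochondrial biogenesis GABPA, the ETS factor whose word stands in 41.4% of the promoters, rose (33.2 ± 2.36 in control against 56.4 ± 0.96 CPM with knockdown, log2 fold change 0.76, SE 0.0578, adjusted p = 1.1e-09). GABPB1 (0.35), PPRC1 (0.19) and YY1 (0.14) rose by less, and PPARGC1A rose from 0.14 ± 0.101 to 1.13 ± 0.248 CPM, both low. MYC fell (138 ± 4.52 in control against 83.9 ± 1.96 CPM with knockdown, log2 fold change −0.72, SE 0.0473, adjusted p = 1.48e-10), and NRF1 (0.09) and ESRRA (0.00) did not pass. Cytosolic ribosomal protein genes gave 13 lower and 16 higher of 83 tested, with a median of 0.00. The difference between that family and the mitochondrial one was not tested.

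**Figure D5:**
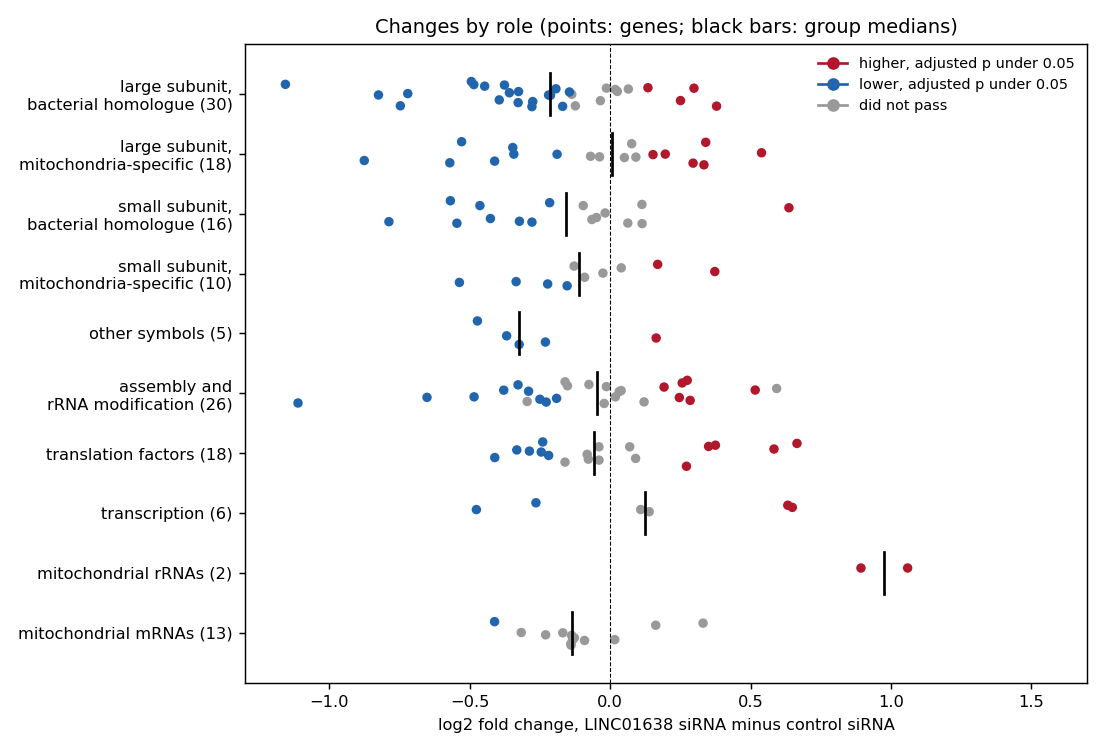
Log2 fold change of each gene (point) by role, with the number of genes tested in brackets and a black bar at the median. Homologues of bacterial proteins in the large subunit lie mostly below 0 (19 of 30 lower), mitochondria-specific ones on both sides, and the mitochondrial ribosomal RNAs at 0.89 and 1.06.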

How the data were processed

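RNA-seq counts were analysed from 6 libraries of 12Z cells, 3 with control siRNA and 3 with LINC01638 siRNA (knockdown), grouped by the sample labels. The count values, as deposited by the authors, are whole numbers of reads per gene without normalization, 1 table per library. Per the submitters' processing notes, STAR 2.7.10b, R 4.2.1 and the GRCh38 (hg38) genome were used. Of the annotation release and the mapping settings the sources used here say nothing. Reverse-strand counts were taken, which fits the directional kit named in the labels' protocols and held most reads. Reads mapping to several places are listed as 0, so near-identical copies count only where reads are unique, and reads over several genes (7.49% ± 0.243 of mapped reads in control and 7.17% ± 0.163 in knockdown libraries) count for none. Rows that name no gene, those reads, unmapped reads (12.3% ± 0.351 and 13.0% ± 0.0422 of all fragments) and reads outside exons, stayed out of library sizes and tests.

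Low genes were removed by filterByExpr of edgeR (count 10, total 15), which kept 18569 genes, and TMM scaling gave factors of 0.958 to 0.969 in control and 1.03 to 1.04 in knockdown libraries. edgeR's quasi-likelihood F test (robust, group as the only term) was adjusted by Benjamini-Hochberg over all genes, with a threshold of 0.05. Each adjusted p in the text is from it unless another fit is named. SE was obtained as |log2 fold change|/√F. RPKM uses exonic lengths of GENCODE 29, perhaps not the release the counts rest on. Tools were edgeR 4.0.16, DESeq2 1.42.0 and limma 3.58.1 under R 4.3.3, and pandas 2.3.3, matplotlib 3.10.9, scipy 1.17.1 and numpy 2.4.6 under Python 3.11.15. The test was checked first on simulated data in which only a small part of the genes was changed, in both directions. With far more genes past the threshold in the data, that check cannot show how the scaling behaves here. Replicates of a group differed by more than counting noise (chi-square per degree of freedom 5.94 to 16.5).

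The genes, lists and classes were chosen with earlier results of these data known, and the lists come from general knowledge. Any member could be named. Values in each library are given for the 5 largest rises and falls past the threshold in each subunit by symbol, the 3 highest levels and the lowest level per length, and MRPL10, MRPL12, MRPS12, MRPL58, the MRPS18 paralogues, MRPS30 and MRPS36. From other lists, up to 4 genes past the threshold with the lowest p, the most abundant gene and some fixed names are given. Genes of back-to-back pairs outside the family were named after their values were seen. Alternatives were other scalings, DESeq2, limma-voom, other filters, counts without strand, a replicate block, a fit of protein-coding genes only, placement by structure, each library left out and, added after the data were seen, genes without shared exons.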

Additional observations from a re-analysis of the deposited data

How the results depend on the processing

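No named gene reversed its direction while called, and of the 53 members called 37 kept direction and call in each of the 15 alternative fits, 28 lower and 9 higher. Scaling decided most of the others: with library totals alone 11 called members lost their call, the small subunit had 7 higher genes, the other lists 15 lower genes, the large subunit median was −0.0772 and the small subunit median 0.00553 in place of −0.10, which follows from the shift of all genes by 0.102. In the column counted without strand 9 members were higher, 6 of them MRPL, and the cause was not tested. With subunits placed by structure the log2 ratio of summed small to large subunit levels was −0.0483 in place of −0.00917, and the groups no longer overlapped. The ratio by symbol had a log2 SD of 0.0117 between knockdown libraries. The ratio by structure, not on the log2 scale, had SDs of 0.000422 in control and 0.00312 in knockdown libraries. Leaving out 1 library gave 9 to 14 higher and 35 to 42 lower members, 6 to 10 higher and 23 to 28 lower MRPL, 3 to 4 higher and 12 to 14 lower MRPS genes, medians of −0.21 to −0.14 and −0.15 to −0.05, log2 ratios of −0.0155 to −0.00386, and 20 to 22 higher and 17 to 25 lower genes in the other lists. The 9 higher members came without knockdown library B or control library C. MRPL3, MRPL44, MRPL46, MRPL54 and MRPS31 among the higher genes, and MRPL9, MRPL14, MRPL22 and MRPS27 among the lower, lost the call in at least 1 omission. Same-letter libraries did not deviate together (correlations −0.156, −0.080 and −0.00794 for A, B and C), so no pairing by letter was seen. With n = 3 in each group such a check cannot settle whether samples were paired. With the replicate block 10 members were higher and 38 lower. MRPL53 had too few counts to test. MRPL38, MRPL46, MRPS24 and MRPS28 had low levels. All 5 share 11.3% to 45.2% of their exonic length with another gene, but MRPL2 and MRPS5, also low, share 0% and 8.19%. The part of shared exons in these levels was not tested.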
